A study of Homo sapiens with 12 samples.

Results

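The regions described here were open in every ARPE-19 library and called as open in some, but not all, libraries of H7. ARPE-19 is a spontaneously arising human line of retinal pigment epithelium, the pigmented layer behind the photoreceptors, and H7 is a line of human embryonic stem cells. The peak lists of 6 ATAC-seq libraries, 3 of each line, were merged wherever peaks overlapped by at least 1 base on the autosomes. The merge gave 81770 regions, and 25854 of them were called in all 3 ARPE-19 libraries. Among these, 2981 (11.5%) were also called in 1 or 2 of the 3 H7 libraries and are named partial regions below, 3.65% of all merged regions. They are set beside the 21378 regions (82.7%) called in 3 ARPE-19 and 0 H7 libraries, named ARPE-19-only, and the 1495 (5.78%) called in all 6.

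Neither line carried a treatment. The ARPE-19 cells were grown in serum-containing medium and the H7 cells in a serum-free stem cell medium, so line and medium cannot be told apart. Each library came from 500000 cells. The labels call the libraries triplicates and do not name separate cultures, and the spread between libraries may therefore be technical. Each group is a single cell line, and the labelled cell types were not checked against marker genes, because gene models of hg19, the build of the lists, were not used here. For the same reason no region is assigned to a gene, and no sequence is given.

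ATAC-seq uses the Tn5 transposase, which inserts sequencing adapters where DNA is not wrapped in nucleosomes or otherwise covered. A peak is a stretch where insertions pile up beyond the local background, and its summit is the position of the highest pile-up. Promoters of widely expressed genes and sites of the insulator protein CTCF are known to be open in many cell types, while distal enhancers are known to differ more between cell types. A peak caller turns a graded signal into a yes or no, so a region can be called in 1 replicate and missed in the next at a similar signal.

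The 6 autosomal lists differed in length, from 38872 to 46942 peaks in ARPE-19 and from 8295 to 14725 in H7. The H7 lists were shorter although their genome-wide background, a value that rises with the number of reads and can be recovered from each list, was higher, at 0.592 to 0.653 reads per position against 0.425 to 0.483 in ARPE-19. At that background the weakest called peaks had 4 summit reads in each ARPE-19 library, 5 in H7 replicates 1 and 2 and 6 in H7 replicate 3. The regions were chosen by the peak calls of all 6 libraries. Differences between the classes in the calls, strength, width or summits of either line are therefore given as a description, with the spread over libraries and no test. A wider region is also overlapped more often by construction.

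Most partial regions rested on a single H7 library. A peak in 1 H7 library was found at 1795 of them (60.2%; 6.94% of the regions called in 3 ARPE-19 libraries), and a peak in 2 at 1186 (39.8%; 4.59%). H7 replicate 1 alone called 700, H7 replicate 2 alone called 700 and H7 replicate 3 alone called 395. Set against the length of each list, these came to 47.5, 53.3 and 47.6 regions per 1000 autosomal peaks of replicates 1, 2 and 3. The single calls were thus spread over the 3 H7 libraries nearly in proportion to list length.

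**Figure D1:**
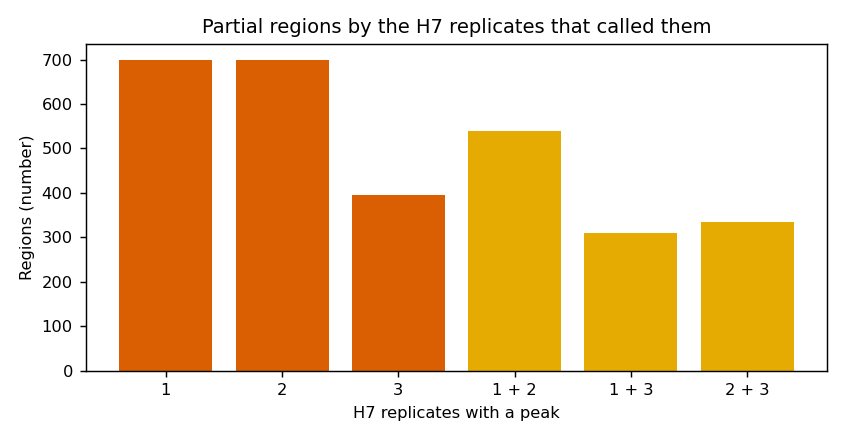
Number of partial regions (vertical axis) for each combination of H7 replicates that had a peak (horizontal axis), with single calls in orange and pairs in yellow. Replicates 1 and 2 alone had 700 regions each, and the pair of replicates 1 and 2 had more (540) than either pair with replicate 3 (311 and 335).

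Among the regions with 2 H7 calls, replicates 1 and 2 shared 540, replicates 2 and 3 shared 335 and replicates 1 and 3 shared 311. H7 replicate 3, the shortest list, was the missing library at 45.5% of them, against 28.2% for replicate 1 and 26.2% for replicate 2. Partial regions took up 10.6%, 12.1% and 12.6% of the peaks in the lists of H7 replicates 1, 2 and 3. The regions called in all 6 libraries took up 10.3%, 11.6% and 18.1%, shares that the class rule and the list length fix, since each of these regions has a peak in every list.

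H7 calls, whether partial or in all 3 libraries, were more frequent the more ARPE-19 libraries had the region. A peak in 1 or 2 H7 libraries was present at 4.52% of the 25350 regions called in 1 ARPE-19 library, at 8.34% of the 12565 called in 2 and at 11.5% of those called in 3. A peak in all 3 H7 libraries was present at 0.576%, 1.26% and 5.78% of the same regions, so the rise is not particular to partial calls. Seen from the other line, 304 of the 3269 regions called in 3 H7 libraries (9.30%) had a peak in 1 or 2 ARPE-19 libraries. Where a region of 3 ARPE-19 libraries had any H7 peak, it had all 3 in 33.4% of 4476 cases. Where a region of 3 H7 libraries had any ARPE-19 peak, it had all 3 in 83.1% of 1799 cases. A region called in both lines was thus more often called incompletely in H7, whose lists are shorter.

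The H7 peaks at partial regions were of middling strength in their lists. Regions with 1 H7 call had a median of 9 summit reads in each H7 library, regions with 2 had 11, and regions called in all 6 had 15, 15 and 14 in replicates 1, 2 and 3. Ranked by -log10 q, the peak caller's measure of confidence, within each autosomal list, the median H7 peak of a partial region stood at the 57.8th percentile in replicate 1, the 56.7th in replicate 2 and the 49.3rd in replicate 3 (mean 54.6 ± 4.65, SD, n = 3). With 1 H7 call the mean was 44.8 ± 5.39, with 2 it was 61.5 ± 4.18, and at regions called in all 6 it was 82.2 ± 4.31 (SD, n = 3). The order held in each of the 3 H7 libraries.

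The H7 peaks near the limit of calling were mostly at regions with 1 H7 call. A -log10 q below 2, where the lists begin at 1.3, was seen at 6.38%, 6.35% and 4.13% of partial regions with a peak in H7 replicates 1, 2 and 3, against 11.6%, 10.8% and 5.67% of all autosomal peaks of these lists. At regions with 1 H7 call it was seen at 9.14%, 10.9% and 7.34%, below the list in replicate 1, about equal to it in replicate 2 and above it in replicate 3. At regions with 2 it was seen at 4.11%, 2.74% and 2.17%. A -log10 q of at least 5 was reached at 36.6%, 34.0% and 33.9% of partial regions. The same threshold was passed by 32.7%, 32.5% and 37.6% of all peaks, so the share at partial regions was above that of the list in replicates 1 and 2 and below it in replicate 3. At regions with 1 H7 call it was 24.9%, 22.7% and 20.8%, below the list in all 3 replicates. The number of partial regions depended on the threshold: it was 1399 with a minimum of 5 and 417 when each list was held to its 8295 strongest peaks.

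The weakest H7 peaks that made a region partial had 6 summit reads on chromosome 9 from 120466361 to 120466611 (replicate 1, -log10 q 1.31), 6 on chromosome 8 from 94929920 to 94930086 (replicate 2, 1.30) and 7 on chromosome 2 from 219260835 to 219261061 (replicate 3, 1.30). Just past the upper limit of the class was a region on chromosome 6 called in all 6 libraries, whose H7 peak in replicate 1, from 10747702 to 10748005, had 7 summit reads and a -log10 q of 1.33, against 16 and 10 summit reads in replicates 2 and 3. By overlap, 3 partial regions depended on 5 shared bases or fewer and 41 (1.38%) on 50 or fewer. On the far side of that limit, 50 of the ARPE-19-only regions (0.234%) had an H7 peak less than 100 bases away, and 499 (2.33%) had one less than 1000 bases away. Overlap by a few bases therefore decided few memberships.

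The missing call was seldom a peak that lay just beside the region. Of the 1186 regions with 2 H7 calls, 2 had a peak of the third H7 library less than 100 bases away, and 27 (2.28%) had one less than 1000 bases away. Of the 1795 regions with 1 H7 call, 8 had a peak of another H7 library less than 100 bases away and 80 (4.46%) less than 1000 bases away.

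On the ARPE-19 side, partial regions had wider peaks than ARPE-19-only regions in each library. The median width was 354, 329 and 385 bases in ARPE-19 replicates 1, 2 and 3 (mean 356 ± 28.1, SD, n = 3). It was 319, 300 and 336 bases at ARPE-19-only regions (318 ± 18.0) and 426, 410 and 456 at regions called in all 6 (431 ± 23.4). Taken library by library, the width was in the order of 0, 1, 2 and 3 H7 calls in each of the 3 ARPE-19 libraries, at 320 to 376 bases for 1 call and 344 to 398.5 for 2. Between partial and ARPE-19-only regions the difference within a library was 37.7 ± 10.3 bases (SD, n = 3), and 24.3 where peaks had to cover 50% of the ARPE-19 part of the region. The medians of the 2 classes overlapped across libraries, so the order is seen within libraries.

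Their strength did not follow the same order. The median ARPE-19 peak of a partial region stood at the 65.9th, 62.3rd and 67.8th percentile of the lists of replicates 1, 2 and 3 (mean 65.3 ± 2.76, SD, n = 3). ARPE-19-only regions stood at the 67.4th, 64.2nd and 69.9th (67.2 ± 2.86), and regions called in all 6 at the 82.3rd, 80.4th and 84.5th (82.4 ± 2.10). Within the partial regions, those with 1 H7 call were lower than ARPE-19-only regions in each library, at 62.5 ± 2.90, and those with 2 were higher in each library, at 69.0 ± 3.20 (SD, n = 3). The difference for 1 H7 call was -4.69 ± 0.33 percentile points, but -0.39 with peaks covering 50% of the ARPE-19 part and -0.53 with a -log10 q of at least 5. For the class as a whole, the difference from ARPE-19-only regions of -1.84 ± 0.33 percentile points within a library changed its sign under that minimum of 5 (2.21), with peaks covering 50% of the ARPE-19 part (1.46), and without ARPE-19 replicate 1 (0.12) or replicate 2 (0.53). The median number of ARPE-19 summit reads was the same for partial and ARPE-19-only regions, at 14, 13 and 15 in replicates 1, 2 and 3. At regions called in all 6 it was 20, 18 and 21. With 1 H7 call it was 14, 12 and 14, and with 2 it was 16, 14 and 16. As a class, partial regions thus had the median summit height of ARPE-19-only regions over a wider stretch. Those with 2 H7 calls were higher in each library, and those with 1 were lower in replicates 2 and 3.

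The local background around the peaks was also higher. Divided by the library's genome-wide value, it was 2.20, 2.03 and 2.39 at the ARPE-19 peaks of partial regions in replicates 1, 2 and 3 (mean 2.21 ± 0.18, SD, n = 3). ARPE-19-only regions had 1.94, 1.78 and 2.05 (1.92 ± 0.14), and regions called in all 6 had 2.66, 2.38 and 2.96 (2.67 ± 0.29). Reads of the peak itself can enter this measure, and its part in the width was not tested. Very high values were rare, since a mean ratio above 5 was seen at 59 partial regions (1.98%), 502 ARPE-19-only regions (2.35%) and 114 regions called in all 6 (7.63%).

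**Figure D2:**
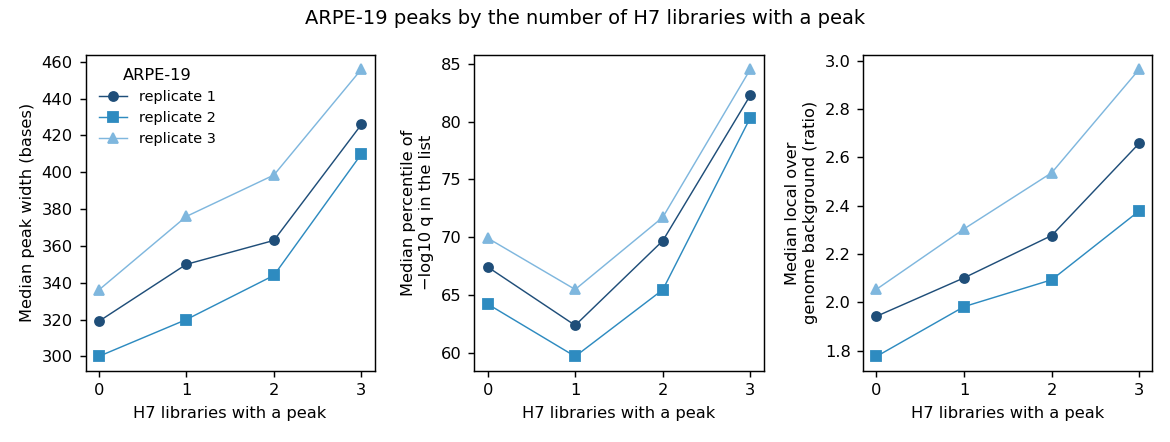
Median width in bases (left), median percentile of -log10 q in the autosomal list (middle) and median local background over the genome-wide background (right) of ARPE-19 peaks, against the number of H7 libraries with a peak; points are the 3 ARPE-19 libraries and lines join a library. Width and background are in the order of the H7 calls in each library, while the percentile is lowest at 1 H7 call (59.7 to 65.5); the vertical axes do not start at 0.

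Within bins of ARPE-19 strength, the medians of width and background were again higher at partial regions as a class. When the 25854 regions called in 3 ARPE-19 libraries were split into 10 bins of equal size by their mean ARPE-19 percentile, the median width was higher at partial than at ARPE-19-only regions in 10 of 10 bins, by 16.2 to 58.3 bases. In the strongest bin, regions with 1 H7 call were not wider, at 448 bases against 451 at ARPE-19-only regions. The local background ratio was higher in 10 of 10 bins too, by 0.20 to 0.44. The bins share libraries and are not separate trials, and the overlap rule itself favours wide regions within each bin.

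Along these bins of ARPE-19 strength, the share of partial regions stayed within 10.1% to 12.9% up to the ninth and was 8.66% in the strongest. Single H7 calls made up 8.04% of regions in the weakest bin and 4.95% in the strongest. Calls in 2 H7 libraries had their highest share, 5.45%, in the seventh bin, and calls in all 3 had 2.24% in the weakest and 13.8% in the strongest. Among regions with any H7 peak, 83.6% were partial in the weakest bin and 38.6% in the strongest. By width the share of partial regions among all regions of a bin took a different course. It was 6.88% in the narrowest bin and 17.4% in the widest, which held 450 partial regions. By local background it was 6.34% in the lowest bin, 15.3% in the eighth and 12.6% in the highest. Among regions with any H7 peak, 80.9% were partial in the narrowest bin and 54.1% in the widest. By local background 81.6% of such regions were partial in the lowest bin and 48.1% in the highest. Among regions with any H7 peak, the partial share was thus lower in the top bin for strength, width and background alike.

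**Figure D3:**
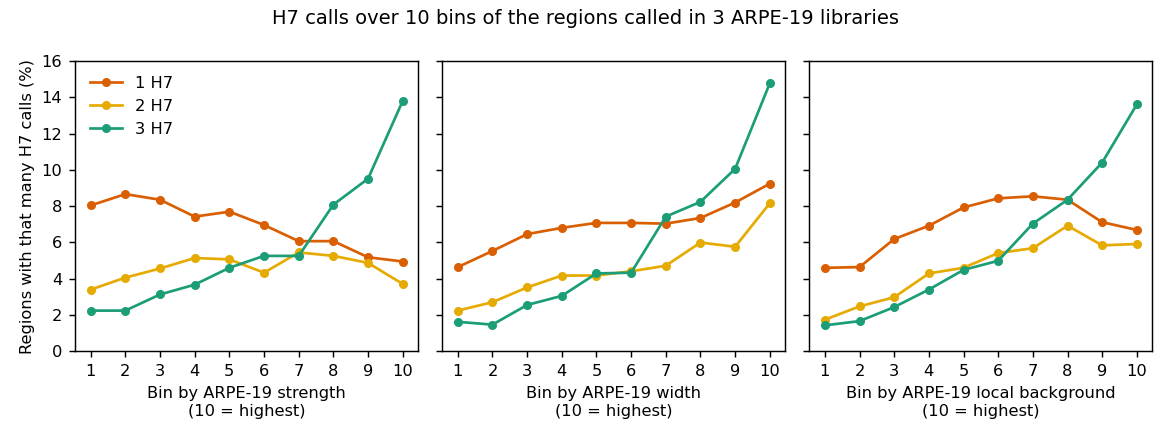
Share of the regions called in 3 ARPE-19 libraries that had a peak in 1, 2 or 3 H7 libraries (vertical axis, percent), in 10 bins of the regions ordered by mean ARPE-19 strength, width and local background (horizontal axes, 10 the highest). Single H7 calls are 4.95% in the strongest bin and 9.24% in the widest, while calls in 3 H7 libraries are highest in the top bin of each measure.

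Merged partial regions had a median width of 523 bases (quartiles 409 and 667), against 429 at ARPE-19-only regions and 590 at regions called in all 6. The stretch from the first to the last base of the ARPE-19 peaks, gaps included, had a median of 495 bases at partial regions. An H7 peak can join ARPE-19 peaks that would otherwise be separate regions. How much of the difference lay in ARPE-19 alone can therefore not be told from this stretch. An H7 peak reached beyond that stretch at 33.1% of them. More than 3 ARPE-19 peaks were found at 5.20% of partial regions (155), 1.80% of ARPE-19-only regions and 4.21% of regions called in all 6. At such regions at least 1 library had several peaks, which joining by an H7 peak can also bring about.

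The summits of the 2 lines lay farther apart at partial regions than at regions called in all 6. From the median ARPE-19 summit, the H7 summit was at a median distance of 63, 61 and 58 bases in H7 replicates 1, 2 and 3 (mean 60.7 ± 2.52, SD, n = 3). At regions called in all 6 these distances were 48, 50 and 51 bases (49.7 ± 1.53), so the ranges of the libraries did not overlap. The difference of 11 bases became 5.17 under a minimum -log10 q of 5, 4.17 with peaks covering 50% of the ARPE-19 part, 3.83 with lists of equal length and 16.5 without H7 replicate 3. With 1 H7 call the mean was 67.7 ± 4.04 bases, and with 2 it was 55.7 ± 1.15 (SD, n = 3). Distances over 150 bases, about the length of DNA on a nucleosome, were seen for 20.4% of the H7 peaks at partial regions and 13.9% at regions called in all 6. An H7 summit lay outside the stretch of the ARPE-19 peaks in 4.94% of cases at partial regions (206 of 4167) and in 1.87% at regions called in all 6.

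**Figure D4:**
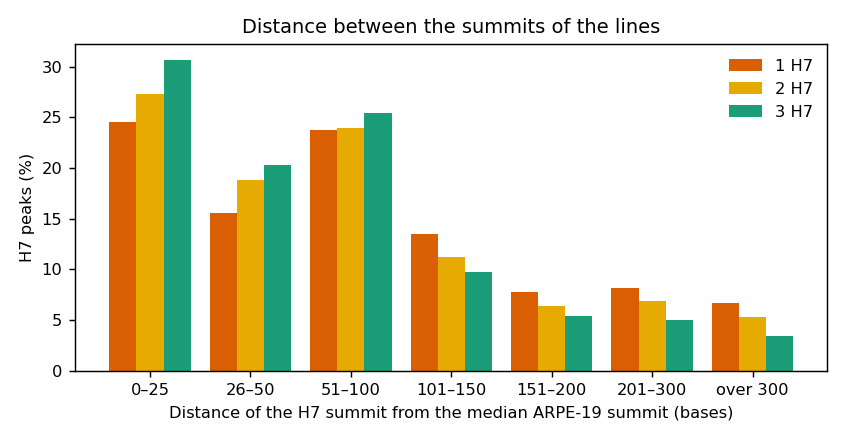
Share of H7 peaks (vertical axis, percent) by the distance of their summit from the median ARPE-19 summit of the region (horizontal axis, bases), for regions of 3 ARPE-19 libraries with peaks in 1, 2 or 3 H7 libraries. The shortest distances, up to 25 bases, are held by 24.6%, 27.3% and 30.7%, and distances over 300 bases by 6.69%, 5.35% and 3.43%.

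The ARPE-19 summits themselves were more scattered there. The range of the 3 ARPE-19 summits had a median of 77 bases at partial regions, 67 at ARPE-19-only regions and 71 at regions called in all 6, and it exceeded 150 bases at 22.4%, 13.5% and 17.3%. The ARPE-19 peaks of partial regions were also wider than those of ARPE-19-only regions, and an H7 peak can join separate ARPE-19 peaks. The part of width and joining in this range was not tested. At the regions with 2 H7 calls, the 2 H7 summits were a median of 60 bases apart. Their median distance of 55 bases from the median of the 3 ARPE-19 summits is an unlike measure, since that reference is not the summit of a single library. Pairs of ARPE-19 summits at the same regions were a median of 48 bases apart. With a few reads at each H7 summit, the position of a summit is itself uncertain, and how far that adds to the distances was not tested.

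Summit heights were scaled by the genome-wide background of each library to set the lines side by side. On this scale the mean H7 height at a partial region, over the libraries with a peak, was below the mean ARPE-19 height by a median log2 ratio of -0.96 (quartiles -1.42 and -0.56). It was -1.01 with 1 H7 call, -0.90 with 2 and -0.90 at regions called in all 6. The H7 height exceeded the ARPE-19 height at 136 partial regions (4.56%) and at 122 regions called in all 6 (8.16%). These ratios leave out the H7 libraries without a peak, so they overstate the H7 level. The ARPE-19 replicates varied alike in all classes, with a median coefficient of variation of 21.2% at partial regions, 21.1% at ARPE-19-only regions and 19.9% at regions called in all 6.

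The strongest partial region in ARPE-19 among those with 2 H7 calls lay on chromosome 3 from 131854723 to 131855324. It had 89, 89 and 87 summit reads in ARPE-19 replicates 1, 2 and 3, and 7 and 9 in H7 replicates 2 and 3, with no peak in H7 replicate 1. All 3 ARPE-19 values were far above both H7 values, a contrast that the choice by ARPE-19 strength favours. The next lay on chromosome 14 from 97263481 to 97263988, with 56, 47 and 55 summit reads in ARPE-19 and 10 and 15 in H7 replicates 1 and 3. On chromosome 5 from 153008418 to 153009079, the 3 ARPE-19 summits fell on the same base, 153008733, with 49, 46 and 48 reads, while the H7 summits of replicates 1 and 2 lay 74 and 59 bases away with 15 and 9 reads. The other regions of this rule, on chromosome 1 from 248069726 to 248070265 and on chromosome 7 from 123437876 to 123438446, had 38 to 48 ARPE-19 and 8 to 12 H7 summit reads.

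Among the regions with 1 H7 call, the strongest in ARPE-19 lay on chromosome 13 from 65297878 to 65298280. It had 55, 72 and 68 summit reads in ARPE-19 replicates 1, 2 and 3, and 6 in H7 replicate 2. On chromosome 1 from 143913212 to 143913740 the ARPE-19 summits had 70, 46 and 64 reads, and H7 replicate 1 had 12 at the same base, 143913444. The opposite was seen on chromosome 1 from 97025591 to 97026155, where the 3 ARPE-19 summits shared the base 97025900 with 67, 60 and 73 reads, and the only H7 peak, in replicate 3 with 13 reads, had its summit 237 bases away. The remaining regions of this rule lay on chromosome 1 from 98552318 to 98552673 and on chromosome 12 from 39836855 to 39837437, with 47 to 76 ARPE-19 summit reads and 8 and 15 in H7 replicate 1. In each of these 5 regions the lowest ARPE-19 library had more summit reads than the H7 library with a peak. The choice by ARPE-19 strength favours this, so it is a description only.

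Ranked by H7 strength instead, the summit reads of the 2 lines were of similar size in several regions, and they are also given divided by the genome-wide background of the library, which was higher in H7. The first region, on chromosome 16 from 46403582 to 46403890, had 26, 22 and 13 summit reads in ARPE-19 replicates 1, 2 and 3, and 25 in each of H7 replicates 2 and 3, yet no peak in H7 replicate 1. Scaled, these were 53.9, 48.1 and 30.6 in ARPE-19 and 42.2 and 39.5 in H7, so the lines overlapped. Whether this region is prone to artefact signal was not checked. On chromosome 5 from 162887020 to 162887701 the ARPE-19 summits had 36, 26 and 24 reads, and H7 replicates 1 and 3 had 29 and 31. Scaled, the ARPE-19 values of 74.6, 56.8 and 56.4 were all above the H7 values of 44.4 and 49.0. On chromosome 14 from 81630564 to 81630853 there were 32, 22 and 21 reads in ARPE-19 and 26 and 24 in H7 replicates 1 and 2. Here too the scaled ARPE-19 values, 66.3, 48.1 and 49.4, were above those of H7, 39.8 and 40.5. In all 3 regions the missing H7 library was thus absent beside replicates at the 98.8th percentile of their lists or above. On chromosome 1 from 218847778 to 218848150, a single H7 library, replicate 1, had 24 summit reads, above the 16, 15 and 15 of ARPE-19, and scaled it had 36.7 against 33.1, 32.8 and 35.3. The fifth, on chromosome 11 from 4629109 to 4629814, had 35, 40 and 47 reads in ARPE-19 and 27 and 21 in H7 replicates 1 and 2.

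The largest distances between summits came from broad merged regions, as a large distance requires, but the single ARPE-19 peaks were not all broad. On chromosome 10 from 84026203 to 84027540, the ARPE-19 peaks were 1234, 1314 and 1251 bases wide, and the only H7 peak, in replicate 2 with 5 summit reads, had its summit 879 bases from the median ARPE-19 summit. On chromosome 11 from 129872478 to 129873655, the ARPE-19 summits of replicates 1 and 3 lay at 129873585 and 129873496 and that of replicate 2 at 129872918. The H7 summits, at 129872755 and 129872731 with 11 reads each, lay nearer to the ARPE-19 summit of replicate 2. On chromosome 2 from 167267417 to 167268485, by contrast, the ARPE-19 summits lay together at 167268246, 167268166 and 167268252, and the H7 summit of replicate 1 was 718 bases away with 8 reads. The ARPE-19 peaks on chromosome 6 from 88182244 to 88183551 were 935, 312 and 607 bases wide, with the H7 summit 866 bases away. From 88117446 to 88118578 on that chromosome they were 720, 245 and 252 bases wide, at a mean distance of 643 bases. On chromosome 9 from 6756955 to 6758102 they were 857, 799 and 1014 bases wide, at a mean distance of 634 bases.

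Chromosome 19, known as a gene-dense autosome, held the highest share of partial regions. There, 119 of 418 regions called in 3 ARPE-19 libraries were partial (28.5%), against 11.5% over all autosomes. Chromosome 17 followed with 90 of 525 (17.1%), chromosome 16 with 93 of 642 (14.5%) and chromosome 1 with 328 of 2339. Chromosome 21 was lowest with 17 of 258 (6.59%). Without chromosome 19 the share was 11.3% over the other autosomes, so it does not carry the total. With 1 H7 library left out, where a partial region is one with 1 of 2 H7 calls, the share on chromosome 19 was 18.2%, 18.9% and 19.9% without H7 replicates 1, 2 and 3, against 7.52%, 7.62% and 7.90% over all autosomes.

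**Figure D5:**
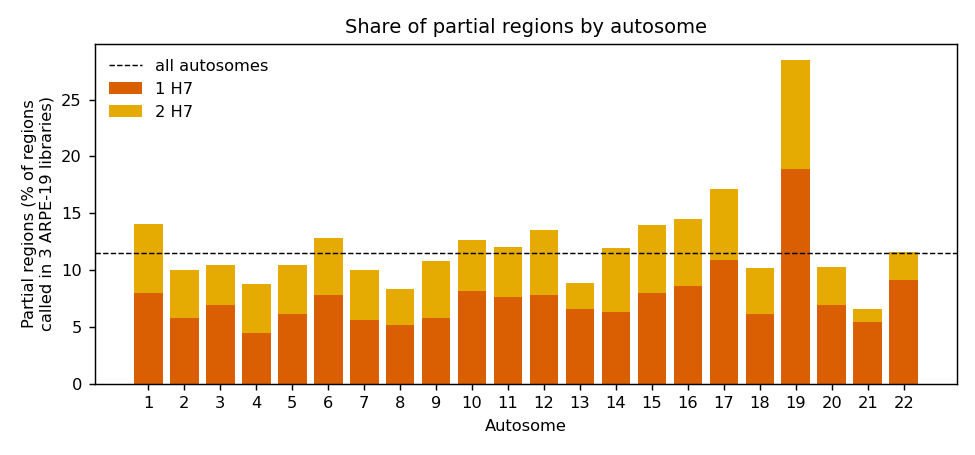
Partial regions as a percentage of the regions called in 3 ARPE-19 libraries (vertical axis) on each autosome (horizontal axis), stacked by 1 H7 call (orange) and 2 H7 calls (yellow), with the share over all autosomes as a dashed line at 11.5%. Chromosome 19 stands at 28.5% and the other autosomes between 6.59% and 17.1%.

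H7 peaks of any kind, with regions called in all 6 counted too, were most frequent on chromosome 19 in each H7 library. Of the regions of chromosome 19 called in 3 ARPE-19 libraries, 20.8%, 23.4% and 18.2% had a peak in H7 replicates 1, 2 and 3 (mean 20.8 ± 2.63, SD, n = 3). Chromosome 17 had 13.1%, 13.7% and 12.6% (13.1 ± 0.57), and chromosome 21 had 7.36%, 9.30% and 7.36% (8.01 ± 1.12). The lowest library of chromosome 19 was above the highest of every other autosome, which reached at most 15.3%. Single H7 calls made up 79 of the 119 partial regions, and another 34 regions (8.13%) were called in all 6 libraries. The ARPE-19 peaks of these partial regions were 350 ± 41.9 bases wide at the median, against 299 ± 26.6 for the 265 ARPE-19-only regions of chromosome 19 (SD, n = 3). Their ARPE-19 percentile was 65.2 ± 5.24, and 59.0 ± 3.87 with 1 H7 call (SD, n = 3). At the ARPE-19-only regions it was 56.1 ± 5.79 (SD, n = 3). These means were in the opposite order to those over all autosomes, but their spreads overlap and differences within a library are not given. Over all autosomes, the difference for the class itself changed its sign under some settings. The strongest of them in ARPE-19, from 52692813 to 52693324, had 40, 42 and 50 summit reads in ARPE-19 and 12 and 17 in H7 replicates 2 and 3.

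Partial regions also gathered in a few windows of 1 Mb, which were singled out after the counts had been seen. The window with the most lay on chromosome 6 from 26 to 27 Mb, with 15 partial regions among 38 called in 3 ARPE-19 libraries (39.5%). The next windows on that chromosome, from 27 to 28 Mb and from 28 to 29 Mb, held 10 of 32 and 9 of 35. Together the 3 windows had 34 of 105 (32.4%), where the rest of chromosome 6 had 193 of 1668 (11.6%). The short arm of chromosome 6 is known for a large cluster of histone genes and for the genes of the major histocompatibility complex, but whether these regions lie at such genes was not analysed here. In these windows 21.0%, 22.9% and 15.2% of the regions had a peak in H7 replicates 1, 2 and 3, against 12.6%, 12.9% and 10.1% on the rest of the chromosome.

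The regions there that were strongest in ARPE-19 were also singled out after values were seen, and their H7 peaks differed in strength. From 27356296 to 27356802, the ARPE-19 summits had 22, 20 and 25 reads. H7 replicates 1 and 2 had 6 each, at the 17.6th and 21.2nd percentile of their lists. From 26123972 to 26124478, the ARPE-19 summits had 35, 19 and 28 reads and H7 replicate 1 had 11, at the 70.2nd percentile. Raising the minimum -log10 q to 5 gave a share of 14.5% in the 3 windows, 10 of 69 regions, where the share over all autosomes was 7.72%. Without H7 replicate 3 it was 17.1%, and partial regions were then those with 1 of 2 H7 calls. Other windows with many partial regions lay on chromosome 12 from 56 to 57 Mb (10 of 21), chromosome 14 from 23 to 24 Mb (9 of 22), chromosome 1 from 150 to 151 Mb (8 of 14) and chromosome 19 from 58 to 59 Mb (8 of 17). Of 2620 windows with a region called in 3 ARPE-19 libraries, 1600 held at least 1 partial region and 11 held 7 or more.

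Partial regions had fewer close neighbours than ARPE-19-only regions. The median distance to the nearest other region called in 3 ARPE-19 libraries, between midpoints, was 29.3 kb for partial regions, 21.8 kb for ARPE-19-only regions and 33.0 kb for regions called in all 6. The nearest region called in all 6 libraries was a median of 478 kb from a partial region and 645 kb from an ARPE-19-only region. From a region called in all 6, the nearest other one was a median of 400 kb away. Where an adjacent region called in 3 ARPE-19 libraries, on either side, lay less than 10 kb away, it had an H7 peak in 19.6% of 682 cases beside a partial region, 11.1% of 6959 beside an ARPE-19-only region and 24.1% of 299 beside a region called in all 6. Beside regions with 1 H7 call this share was 21.1%, and beside those with 2 it was 17.4%. On these measures of spacing, partial regions as a class lay between the other classes. The median distance to the nearest partial region, however, was lowest for partial regions, at 209 kb. It was 297 kb for ARPE-19-only regions and 213 kb for regions called in all 6.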

How the data were processed

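Peak lists from ATAC-seq of 3 ARPE-19 and 3 H7 libraries were used, and 6 samples of 4C were not analysed here. MACS2 and bedtools were run on hg19, per the submitters' processing notes, which give no versions. Aligner, duplicate handling and cut-site shift: not given in the sources used here. The deposited score is 10 times the -log10 q. The fold enrichment deposited for each peak is the ratio of summit to local background after the same constant is added to both. The deposited -log10 p and q belong to the comparison of summit and local background. All are the authors' values, on peaks called per library.

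Summit reads and local background were recovered from fold and -log10 p, within 0.001 of the deposited -log10 p for 100% of autosomal peaks. Reads may include duplicates, and counting error limits low peaks. Where a library had several peaks in a region, the one with the highest -log10 q was used. No filter for repeats or for regions prone to artefact signal was applied here. On simulated lists, 100% of 400 planted partial regions were recovered, by construction, and 100% of 1912 simulated summits. Named regions are the 5 strongest in ARPE-19 with 2 and with 1 H7 calls, the 5 strongest in H7, and those of largest summit distance. Windows, chromosome 19 and their regions were chosen after values were seen. The class and its rule were chosen with earlier results of these data known. The planned results on genes, starts and sequence were not run, because hg19 gene models and sequence were not used here. The alternatives raised the minimum -log10 q to 5, kept the 8295 strongest peaks of each list, asked for peaks over 50% of the ARPE-19 part, used windows of 150 bases to each side of the summit, dropped peaks whose local background exceeded the library's by over 5 times, or left out each library. Scripts ran on scipy 1.17.1, pandas 2.3.3 and numpy 2.4.6 under Python 3.11.15, and matplotlib 3.10.9 drew the figures.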

Additional observations from a re-analysis of the deposited data

How the results depend on the processing

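No paired analysis was possible because the results come from no test and the replicate numbers name no shared source. The number of partial regions was 1399 under a minimum -log10 q of 5, 417 for lists of equal length and 1651 with peaks over 50% of the ARPE-19 part, and 1944 to 3499 without 1 library. In the same order, their share of the regions of 3 ARPE-19 libraries was 7.72%, 8.62% and 8.51%, and 7.52% to 11.2%; the share with 2 H7 calls was 40.7%, 50.4% and 36.7%, and 38.6% to 39.3% without 1 ARPE-19 library; the ARPE-19 percentile was 79.1, 93.0 and 73.6, and 62.0 to 65.6; the H7 percentile was 81.2, 68.0 and 71.3, and 50.3 to 54.4; and the summit distance was 45.5, 44.3 and 51.5 bases, and 59.3 to 66.5. The ARPE-19 width was 405 and 451 bases under the first pair of settings, and 335 to 357 without 1 library. Stricter lists hold stronger peaks by construction, and without an H7 library a region can be partial only with 1 of 2 calls.

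Differences between classes were added after the data had been seen. Partial regions were wider than ARPE-19-only regions by 24.3 to 53.7 bases and had a local background ratio higher by 0.25 to 0.38 under all 11 alternatives. The difference in ARPE-19 percentile ranged from -1.88 to 0.53 without 1 library; it turned to 2.21 under the minimum of 5, 1.46 with peaks over 50% of the ARPE-19 part, and 0.12 and 0.53 without ARPE-19 replicates 1 and 2; the cause was not tested. For regions with 1 H7 call it stayed negative under the 8 alternatives run, from -4.91 to -0.39, but the SD was larger than the mean under the minimum of 5 (-0.53 ± 0.68) and with peaks over 50% of the ARPE-19 part (-0.39 ± 0.79). The summits were farther apart than at regions of all 6 libraries by 3.83 to 16.5 bases, and the SD of that difference was larger than its mean for lists of equal length (3.83 ± 4.65) and for peaks over 50% of the ARPE-19 part (4.17 ± 5.30). The share on chromosome 19 ranged from 18.2%, without H7 replicate 1, to 39.0%, from 23 of 59 regions in lists of equal length. That of the chromosome 6 windows ranged from 14.5%, from 10 of 69 regions, to 36.4%, from only 4 of 11 regions in lists of equal length.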
